A study of Mus musculus with 21 samples.

Results

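Replication-dependent histone genes were followed in the right lung of male C57BL/6 mice during the growth that follows removal of the left lung (left pneumonectomy). Members were all probe sets whose annotated gene symbol starts with Hist1h, Hist2h, Hist3h or Hist4h, or with the newer forms H1f1 to H1f5, H2ac, H2bc, H3c and H4c. The rule found 52 of 35556 probe sets, and these list 62 histone genes. The study took RNA before surgery (day 0), at days 3, 7, 14, 28 and 56 after pneumonectomy, and at day 56 after sham surgery, in mice for which the sources used here give no age. Every one of the 7 conditions was measured on 3 arrays, 1 for each region: medial lobe, cardiac lobe and the entire right lung, called whole lung here (n = 3, 21 arrays in all). The title of the series speaks of de-differentiation and re-development as phases of this growth. It is not stated whether 1 mouse gave all regions at a time point or whether mice were pooled. Except for the early response of each region, p-values therefore set a difference against variation between these regions that is pooled over all 7 conditions. They do not measure the spread of the compared conditions alone. Part of the variation may be technical, and precision is limited by how few arrays there are.

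Core histones H2A, H2B, H3 and H4 form the protein spool of the nucleosome, and the linker histone H1 binds where DNA enters and leaves it. Replication-dependent histone genes are transcribed in S phase, when a cell that copies its DNA must also package the copy. They lie in clusters, lack introns, and make messenger RNAs that end in a stem-loop bound by Slbp instead of a poly(A) tail. Their transcription depends on Npat, a substrate of cyclin E with Cdk2, at nuclear sites called histone locus bodies. Variants such as H2A.Z and H3.3 are made throughout the cell cycle. The labels' protocols describe cDNA synthesis with a 3' amplification kit, a method that usually starts at poly(A), whereas the annotation is that of a whole-transcript gene array. Which of the 2 chemistries was used, and so whether tailed or tail-less histone RNA was read, was not tested.

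The 52 probe sets comprised 4 of linker histones H1, 6 of H2A, 16 of H2B, 13 of H3, 12 of H4, and 1 that lists both H2bc6 and H1f4. Because the gene copies within a family are nearly identical, 24 of them list more than 2 genes and are called shared probe sets here. The 10 shared H3 probe sets list the same 12 H3 genes, and their values across the 21 arrays correlated pairwise at 0.994 or more, so they are close to 1 measurement made 10 times on the same arrays. The 7 shared H2B, 5 shared H4 and 2 shared H2A probe sets behaved likewise, with lowest pairwise correlations of 0.989, 0.994 and 0.982. A pair of H4 and a pair of H2B probe sets held identical values, which leaves 50 distinct profiles. In the means of shared probe sets given below each such pair counts once. Only 26 probe sets list a single gene, and even for these no check of hybridisation to other copies was made. In the other 2 probe sets, H2bc6 is listed with H1f4 and H4c17 with H4c11.

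Promoters of 57 of the 62 genes were found in RefSeq's promoter table for GRCm38.p6, 58 windows in all, of 250 bases before to 50 after each start. Of these, 50 lie on chromosome 13 and 8 on chromosome 3. The letters CCAAT, on either strand, were in 50 of the 58 windows (86.2%) and in 37.4% of all 32851 windows of the table. They were in every H1, H2A, H2B and H3 window (5, 17, 15 and 10) but in 3 of 11 H4 windows (27.3%). TATAAA was in 34 of 58 (58.6%) against 13.6% of all windows. The octamer ATTTGCAT, known from H2B promoters, was in 13 (22.4%) against 1.74%. It was found in 7 of 15 H2B windows and 6 of 17 H2A windows, and in no H1, H3 or H4 window. An H2A and an H2B gene often stand back to back, and 9 such pairs have overlapping windows, so their matches are partly the same letters. AAACACA, known as the H1 box, was in 4 of 5 H1 windows and in 7.18% of all windows. TATAAA and AAACACA can share letters at their ends, as can CCAAT and ATTTGCAT, and a match is a description of the letters only.

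The 150 bases before the start are shown for the 5 single genes with the largest differences from day 0 at day 7 in the H1, H2A and H2B families (described below), and for H1f2, an H1 gene that did not pass the test at either day. They are printed 5' to 3' on the gene's own strand, with the 4 motifs, on either strand, in capitals. H1f1 carries CCAAT followed by TATAAA that starts 33 bases before the transcription start, and H1f5 has the same order with the H1 box further upstream. H2bc3 and H2bc18 carry the octamer on the sense strand and H2ac4 on the other strand. H1f2 has the H1 box and CCAAT but not the exact letters TATAAA.
H1f1 (GRCm38.p6, chr13:23763518-23763667, plus strand): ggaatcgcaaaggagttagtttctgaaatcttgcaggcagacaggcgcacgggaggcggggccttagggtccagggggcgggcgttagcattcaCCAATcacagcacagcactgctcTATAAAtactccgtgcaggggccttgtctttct
H1f5 (GRCm38.p6, chr13:21780626-21780775, minus strand): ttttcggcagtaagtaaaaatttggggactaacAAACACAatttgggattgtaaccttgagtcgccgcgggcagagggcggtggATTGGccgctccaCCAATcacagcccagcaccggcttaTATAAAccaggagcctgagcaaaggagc
H1f2 (GRCm38.p6, chr13:23738657-23738806, plus strand): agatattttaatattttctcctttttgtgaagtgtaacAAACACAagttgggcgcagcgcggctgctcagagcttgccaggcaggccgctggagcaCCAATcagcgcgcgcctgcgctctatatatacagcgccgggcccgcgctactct
H2ac4 (GRCm38.p6, chr13:23750938-23751087, plus strand): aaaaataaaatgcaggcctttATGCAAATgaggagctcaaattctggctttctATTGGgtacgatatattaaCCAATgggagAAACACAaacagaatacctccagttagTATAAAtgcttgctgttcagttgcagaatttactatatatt
H2bc3 (GRCm38.p6, chr13:23746584-23746733, plus strand): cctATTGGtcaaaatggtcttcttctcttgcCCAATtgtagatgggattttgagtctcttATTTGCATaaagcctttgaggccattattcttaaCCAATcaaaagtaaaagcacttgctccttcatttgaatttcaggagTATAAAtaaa
H2bc18 (GRCm38.p6, chr3:96269550-96269699, plus strand): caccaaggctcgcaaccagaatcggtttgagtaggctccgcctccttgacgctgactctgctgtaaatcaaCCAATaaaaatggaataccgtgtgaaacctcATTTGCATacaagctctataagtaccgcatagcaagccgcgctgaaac

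At day 3 after pneumonectomy, 19 of the 52 histone probe sets were called higher than at day 0, where 2.13% of all 35556 probe sets were, and none was called lower, where 1.12% of all were (limma, Benjamini-Hochberg adjusted p under 0.05 over all probe sets). A total of 31 passed an unadjusted p of 0.05, where 14.5% of all probe sets did, and all 31 were higher at day 3. The median log2 difference was 0.37 over the members and 0.01 over all probe sets. At day 7 the count was 23 higher, against 1.91% of all, and 0 lower, against 2.23%. A total of 38 passed an unadjusted p of 0.05, where 23.2% of all probe sets did, and all 38 were higher at day 7. The median was 0.39, and 0.04 over all. The 10 near-identical H3 probe sets make up 10 of the calls at each day, so among the 28 members that list 1 or 2 genes the counts were 7 and 11. In tissue RNA, a change in the number of cells that make histone RNA and a change in histone RNA per cell cannot be told apart. The day 3 count was 2 without the day 0 cardiac lobe, the day 3 cardiac lobe or the day 3 whole lung, and 4 without the day 0 whole lung. The day 7 count was 2 without the day 0 cardiac lobe or the day 0 whole lung, 4 without the day 7 cardiac lobe and 9 without the day 7 medial lobe.

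Against the sham-operated lungs the counts were larger at day 3 and moved less when single arrays were left out. At day 3, 29 of 52 were called higher than sham day 56, against 2.55% of all probe sets, and 1 lower, against 1.65%. At day 7, 24 were higher, against 1.23%, and 0 lower, against 0.922%. A total of 45 passed an unadjusted p of 0.05, where 14.9% of all probe sets did, and 42 of the 45 were higher at day 7. The median member differences were 0.57 at day 3 and 0.62 at day 7, beside -0.01 and 0.02 over all probe sets. Leaving out each array of the conditions compared gave 19 to 29 calls at day 3, with 19 when the day 3 whole lung was left out, and 20 to 29 at day 7. Day 0 and sham are both controls and share no array, while the 2 sets of differences share the day 3 and day 7 arrays. Sham lungs were taken at day 56 alone, so a difference from sham also holds the difference in time since surgery. With either control, pneumonectomy and recent surgery cannot be told apart at days 3 and 7.

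**Figure D1:**
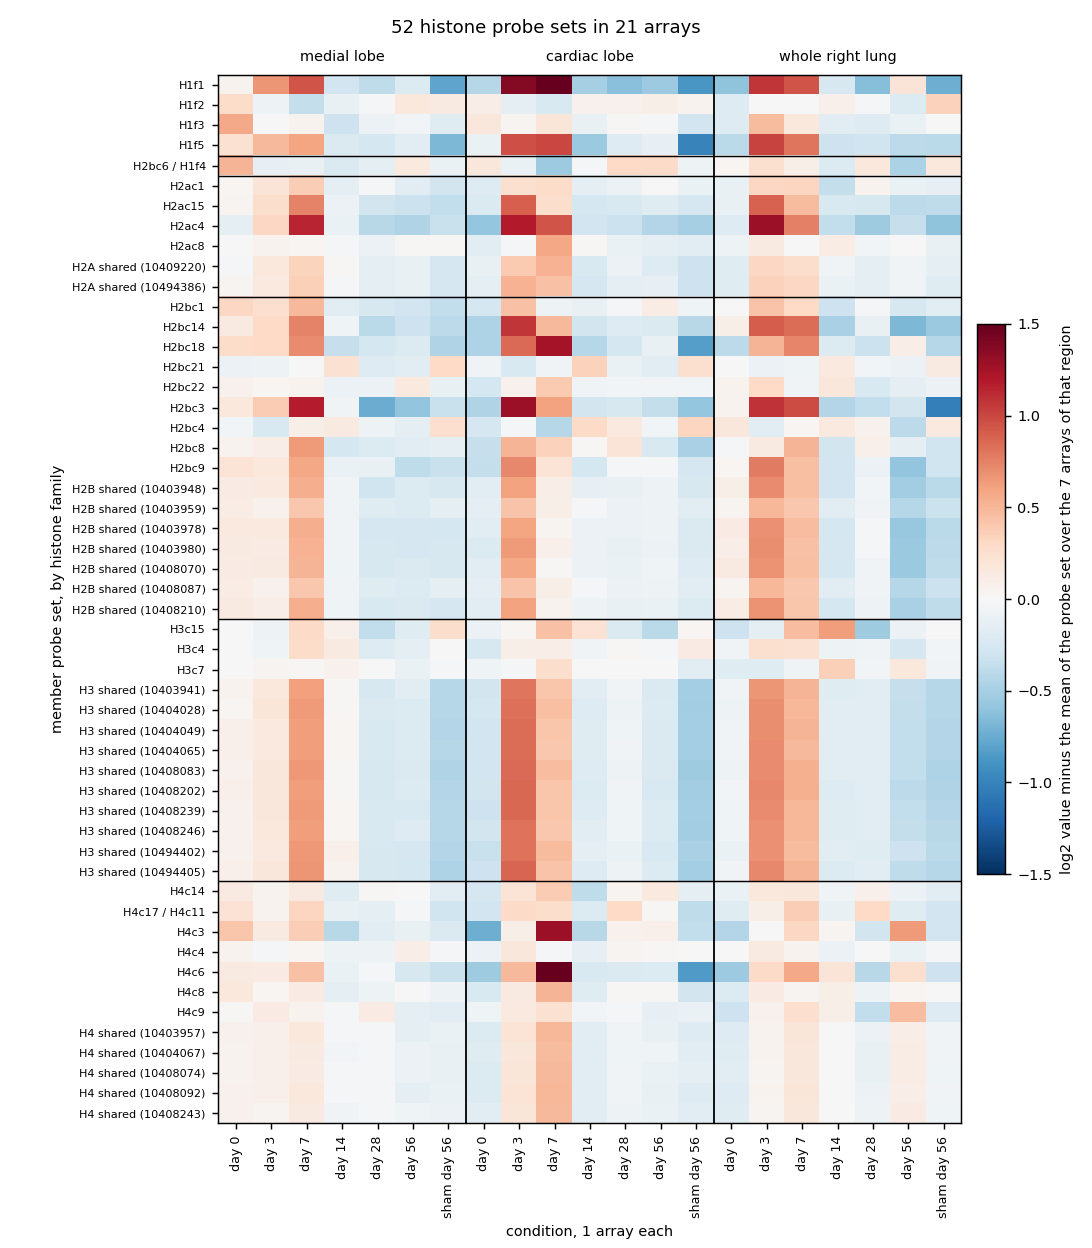
Log2 value of each of the 52 histone probe sets in each of the 21 arrays, minus the probe set's mean over the 7 arrays of the same region (colour, log2 units); rows are grouped by histone family and columns by region, then condition. Red marks arrays above that mean: the day 3 and day 7 columns are red for most H2A, H2B and H3 rows in the cardiac lobe and whole lung, while the medial lobe is close to its mean at day 3 and red at day 7.

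Among the linker histones, H1f1 and H1f5 rose and H1f2 and H1f3 did not pass the test. H1 proteins compact the fibre between nucleosomes, and H1f1 and H1f5 are S-phase subtypes. H1f1 measured log2 8.37, 8.26 and 8.38 at day 0 in the medial lobe, cardiac lobe and whole lung, the order used below. At day 3 it measured 8.98, 10.06 and 10.06, and at day 7 it measured 9.26, 10.27 and 9.93. All 6 early arrays lay above the 3 day 0 arrays, and the medial lobe was the lowest at both days. The log2 differences from day 0 were 1.36 ± 0.23 (SE, a 2.57-fold difference, adjusted p = 0.00354) at day 3 and 1.48 ± 0.23 (2.79-fold, adjusted p = 0.00387) at day 7. Of the 15 other arrays the whole lung at day 56 after pneumonectomy was the highest, at 9.18, above the medial lobe at day 3.

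H1f5 measured 9.0, 8.89 and 8.85 at day 0, then 9.26, 9.96 and 10.27 at day 3 and 9.37, 9.99 and 10.07 at day 7. Its groups did not overlap with day 0 at either day. The log2 differences were 0.92 ± 0.19 (adjusted p = 0.0137) and 0.89 ± 0.19 (adjusted p = 0.0199). H1f2, a subtype known to be made also outside S phase, measured 10.77, 10.56 and 10.47 at day 0, 10.43, 10.31 and 10.67 at day 3, and 10.15, 10.23 and 10.67 at day 7. It was lower than at day 0 in both lobes and higher in the whole lung, with log2 differences of -0.13 ± 0.13 (adjusted p = 0.757) and -0.25 ± 0.13 (adjusted p = 0.261). The H1f3 probe set differed by -0.01 ± 0.16 and -0.05 ± 0.16. The probe set for H2bc6 and H1f4 differed by -0.23 ± 0.21 at day 3 and -0.43 ± 0.21 at day 7 (adjusted p = 0.71 and 0.228).

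Of the 6 H2A probe sets, 5 were called higher at both days, and H2ac8, with log2 differences of 0.13 ± 0.12 and 0.28 ± 0.12, was not. H2A pairs with H2B in the dimers that flank the H3 and H4 core of the nucleosome. H2ac4 had the largest differences in the family: it measured 5.68, 5.58 and 5.72 at day 0, 6.14, 7.35 and 7.20 at day 3, and 6.97, 7.10 and 6.67 at day 7. No early array overlapped with day 0, and the medial lobe was the lowest at day 3 but not at day 7. The differences were 1.23 ± 0.20 (2.35-fold, adjusted p = 0.00295) and 1.25 ± 0.20 (2.38-fold, adjusted p = 0.0046). H2ac15 went from 10.35, 10.23 and 10.21 to 10.58, 11.35 and 11.22 at day 3 and to 11.06, 10.71 and 10.80 at day 7, with differences of 0.78 ± 0.15 and 0.59 ± 0.15 (adjusted p = 0.00951 and 0.0444). In the cardiac lobe and whole lung its highest array was that of day 3, and in the medial lobe that of day 7. H2ac1, a copy known from testis, differed by 0.34 ± 0.09 and 0.41 ± 0.09 (adjusted p = 0.0408 and 0.0187). The mean of the 2 shared H2A probe sets was 11.64 ± 0.02 (SD, n = 3) at day 0, 12.05 ± 0.24 at day 3 and 12.11 ± 0.13 at day 7, and both were called at both days; besides H2A genes they list the variant H2ax.

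Against day 0, 2 of 16 H2B probe sets were called higher at day 3 (H2bc3 and H2bc14) and 4 at day 7 (also H2bc18 and H2bc8), all of them among the 9 that list a single gene. None of the 7 shared H2B probe sets passed against day 0, and the difference between single and shared probe sets was not tested. H2bc3 measured 8.84, 8.51 and 8.95 at day 0, 9.07, 10.24 and 9.99 at day 3, and 9.86, 9.56 and 9.88 at day 7. All early arrays were above day 0, the medial lobe at day 3 by the least. Its differences were 1.0 ± 0.25 at both days (adjusted p = 0.0408 and 0.0399). H2bc14 differed by 0.84 ± 0.21 and 0.77 ± 0.21 (adjusted p = 0.0364 and 0.0497). H2bc18 measured 8.07, 7.60 and 8.09 at day 0, 8.10, 8.92 and 8.99 at day 3, and 8.51, 9.32 and 9.22 at day 7. Its day 3 difference of 0.75 ± 0.20 did not pass (adjusted p = 0.0573) and its day 7 difference of 1.09 ± 0.20 did (adjusted p = 0.00965). H2bc8 differed by 0.35 ± 0.15 at day 3 (adjusted p = 0.273) and by 0.60 ± 0.15 at day 7 (adjusted p = 0.0382).

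The mean of the 7 shared H2B probe sets was 11.79, 11.54 and 11.63 at day 0, 11.78, 12.29 and 12.18 at day 3, and 12.18, 11.78 and 11.96 at day 7. The day 3 medial lobe was no higher than its day 0 array, and the day 7 cardiac lobe was below the day 0 medial lobe. Single shared probe sets differed from day 0 by 0.33 to 0.48 at day 3 and by 0.29 to 0.35 at day 7, none called. From sham they differed by 0.55 to 0.78 at day 3, all 7 called, and by 0.52 to 0.66 at day 7, 1 called. H2bc4 and H2bc21 were among the members not called higher at either early day against either control. Both are copies known to be made in part as poly(A)-tailed RNA in cells that have stopped dividing. Whether this bears on their values was not tested. H2bc4 differed from day 0 by -0.09 ± 0.14 and -0.06 ± 0.14 (adjusted p = 0.857 and 0.797). H2bc21 was the 1 member called lower at an early day, by -0.36 ± 0.07 at day 3 against sham (adjusted p = 0.0105). H2bc21 measured 6.18, 6.18 and 6.17 at day 3 and 6.56, 6.65 and 6.39 in sham lungs, with no overlap. At day 0 it measured 6.17, 6.36 and 6.26. Its difference from day 0 was -0.08 ± 0.07 at day 3 (adjusted p = 0.696) and 0.01 ± 0.07 at day 7 (adjusted p = 0.954).

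Against day 0 the H3 family gave 10 calls at day 3 and 11 at day 7, and 10 of them at each day were its shared probe sets. H3 with H4 forms the central tetramer of the nucleosome, and the tail of H3 carries many of the known chromatin marks. All 10 shared H3 probe sets were called at both days, with log2 differences of 0.63 to 0.68 at day 3 and 0.59 to 0.66 at day 7, and of 0.99 to 1.06 and 0.97 to 1.03 against sham. Their mean measured 11.95, 11.76 and 12.01 at day 0, 12.05, 12.89 and 12.77 at day 3, and 12.52, 12.48 and 12.57 at day 7. The 3 regions lay within 0.1 of each other at day 7, whereas at day 3 the medial lobe was near its day 0 level and the cardiac lobe was the highest of all 21 arrays. At day 14 the mean was back at 11.89 ± 0.03 (SD, n = 3), beside 11.91 ± 0.13 at day 0, and in the sham lungs it was lowest, 11.54 ± 0.09. The 3 H3 probe sets that list a single gene, H3c15, H3c4 and H3c7, had mean log2 values of 4.70, 6.16 and 4.02. H3c15 was called at day 7 (0.53 ± 0.14, adjusted p = 0.0495) and not at day 3 (0.07 ± 0.14, adjusted p = 0.912). H3c4 and H3c7 did not pass at either day.

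Of 12 H4 probe sets none was called at day 3 and 1 at day 7, H4c6. H4c6 measured 9.97, 9.6 and 10.15 at day 0, 9.95, 10.61 and 10.99 at day 3, and 10.27, 11.66 and 11.27 at day 7. The differences were 0.61 ± 0.27 (adjusted p = 0.304) and 1.16 ± 0.27 (2.24-fold, adjusted p = 0.0299). The mean of the 5 shared H4 probe sets was 12.61, 12.49 and 12.65 at day 0, 12.61, 12.87 and 12.88 at day 3, and 12.69, 13.17 and 13.00 at day 7. The lobes and the whole lung were higher at day 7 than at day 0, the cardiac lobe by the most. Differences of the shared probe sets were 0.18 to 0.22 at day 3 and 0.36 to 0.39 at day 7, with adjusted p from 0.0502 to 0.0568 at day 7. H4c4 differed by 0.10 ± 0.07 and 0.02 ± 0.07 (adjusted p = 0.598 and 0.848). H4c17 with H4c11 was called against sham at day 7 only (0.64 ± 0.13, adjusted p = 0.0225). The difference between families was not tested.

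**Figure D2:**
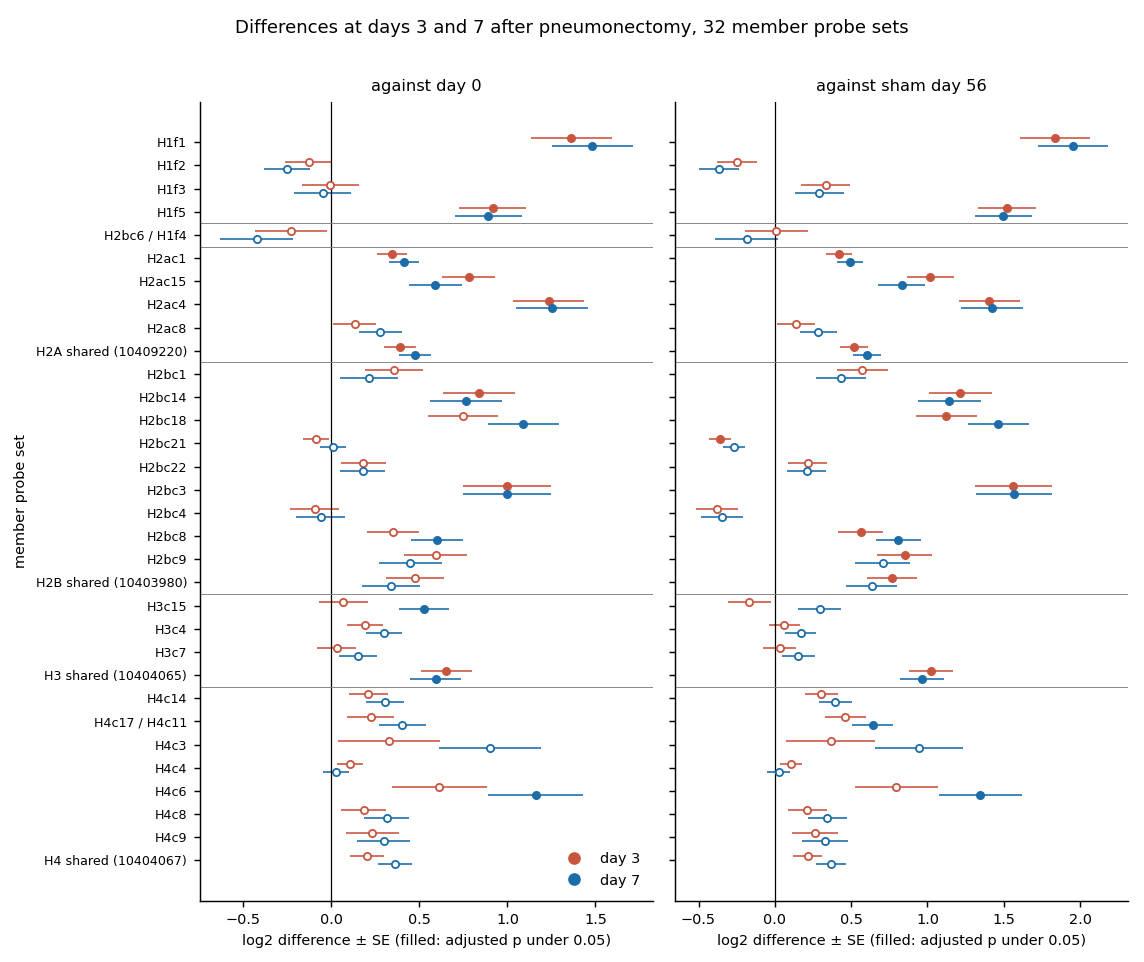
Log2 difference ± SE from day 0 (left) and from sham day 56 (right) at day 3 (red) and day 7 (blue) for the 28 probe sets that list 1 or 2 genes and the shared probe set with the highest mean of each of 4 families; filled points passed an adjusted p of 0.05. H1f1 lies farthest to the right at 1.36 and 1.48 against day 0, while H1f2, H2bc4 and H2bc6 / H1f4 lie at or below 0.

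**Figure D3:**
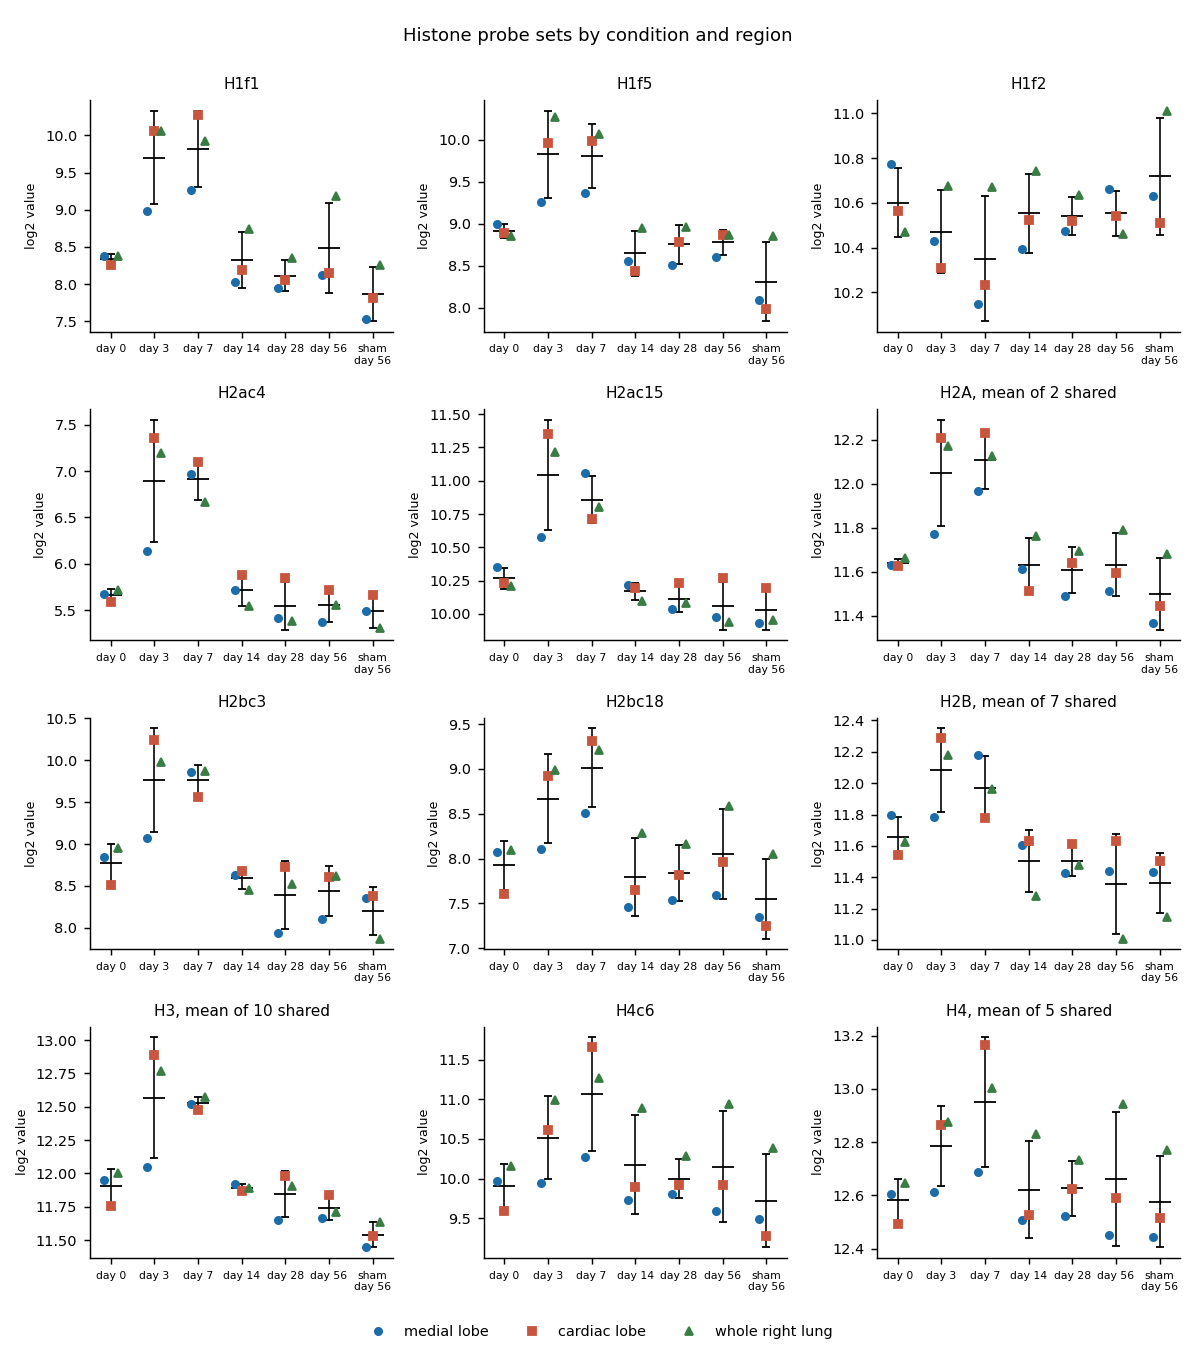
Log2 values by condition for 8 single-gene probe sets and the means of the shared probe sets of 4 families; points are the 3 regions, black bars the mean ± SD (n = 3). The early arrays of H2ac4 (6.14 to 7.35) lie above all others (5.31 to 5.88), while those of H1f2 do not.

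Most members were lower at day 14 than at day 7, 47 of 52, where 48.7% of all probe sets were higher. The median difference was -0.48 over the members and -0.01 over all probe sets. An unadjusted p of 0.05 was passed by 41 members, 1 of them higher, and by 10.1% of all probe sets. Near-identical shared probe sets count singly here. From day 7 to day 14, 7 of 52 were called lower, against 0.225% of all probe sets: H1f1, H1f5, H2ac4, H2bc18, H2ac1 and the 2 shared H2A probe sets. H1f1 fell by 1.5 ± 0.23 and H2bc18 fell by 1.22 ± 0.20 on the log2 scale (adjusted p = 0.0257 for both). The shared H3 probe set with the highest mean differed by -0.61 ± 0.14 (adjusted p = 0.106). The count was 0 without the day 7 cardiac lobe or any 1 of the day 14 arrays, 1 without the day 7 medial lobe and 3 without the day 7 whole lung. Between day 3 and day 7 no member was called, against 0.0197% of all. An unadjusted p of 0.05 was passed by 1 member (H3c15, 0.46 ± 0.14) and by 8.6% of all probe sets. None was called between day 14 and day 28, against 0.0703%, and 5 passed an unadjusted p of 0.05, where 5.81% of all did.

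No member was called against day 0 later in the course, at day 14 (0.565% of all called), day 28 (0%), day 56 (0.00281%) or in sham lungs (0.129%). Unadjusted p-values under 0.05 numbered 3, 0, 0 and 13 of 52, where 9.3%, 7.12%, 12.7% and 8.14% of all probe sets had one. The median member differences were -0.02, -0.06, -0.12 and -0.22. In the sham lungs 45 of 52 members were below day 0, where 54.9% of all probe sets were above it. Above day 0 were 18, 17 and 19 of 52 members at days 14, 28 and 56, and 57.1%, 55.9% and 54.6% of all probe sets. At day 56 the regions were split, with 44 of 52 above day 0 in the cardiac lobe, 20 in the whole lung and 3 in the medial lobe. Within regions the share over all probe sets was not computed, and near-identical shared probe sets were counted singly. Against sham, no member was called at day 14 (0.0197% of all), day 28 (0.09%) or day 56 (0.149%). An unadjusted p under 0.05 was reached by 10, 11 and 6 members, and by 4.56%, 6.52% and 6.58% of all probe sets. The median differences from sham were 0.14, 0.14 and 0.09. H1f1 at day 56 differed from sham by 0.61 ± 0.23 and was higher in all 3 regions, but did not pass (adjusted p = 0.648). Over all 7 conditions the moderated F test of limma called 30 of 52 members, against 3.77% of all. These were 2 H1, 5 H2A, 12 H2B, 11 H3 and 0 H4 probe sets.

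Region by region, the early differences depended on the control array. In the medial lobe 32 of 52 were above day 0 at day 3, with a median of 0.02, and 44 at day 7, with a median of 0.33. In the cardiac lobe 48 were above at both days, with medians of 0.73 and 0.65. In the whole lung 50 and 49 were above, with medians of 0.51 and 0.43. No share over all probe sets was computed for these counts, in which near-identical shared probe sets count singly. Against sham the medians at day 3 were 0.37 in the medial lobe, 0.74 in the cardiac lobe and 0.60 in the whole lung, and at day 7 they were 0.70, 0.65 and 0.72. The medial lobe was thus lowest against both controls at day 3, but against day 0 alone at day 7. At day 56 after pneumonectomy, 3 of 52 members lay above the day 0 array in the medial lobe, with a median of -0.27. Whether this comes from the day 0 or the day 56 array was not tested. Days 3 and 7 were then joined and set against day 0 and sham together. In this fit the conditions joined within a region took the place of replicates. Its p-values set a difference against variation between conditions within a region, not between regions. Called higher were 26 members in the cardiac lobe (1.43% of all), 2 in the whole lung (0.217%) and 0 in the medial lobe (0.00281%). In the medial lobe 21 members were higher at an unadjusted p under 0.05, where 7.96% of all probe sets passed in either direction. The difference of these responses between the cardiac and the medial lobe was tested directly. No member passed, nor did any of the probe sets (0%). An unadjusted p under 0.05 was reached by 11 members and by 4.07% of all probe sets. Of the 11 members, H2bc18 (1.10 ± 0.31) and H4c6 (1.32 ± 0.40) had the smallest p-values, with an adjusted p of 0.967 each. Without the day 3 cardiac lobe 3 members passed, and so did 310 higher and 277 lower of all 35556 probe sets. The whole lung against the lobes gave no call either (0%) and no unadjusted p under 0.05 among the members, beside 2.81% of all probe sets. The regions are thus not shown to differ in their early histone response.

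Levels over all conditions separated the whole lung from the lobes mainly in H4. Lobes were called lower than the whole lung for 15 members, against 10.5% of all probe sets, and 10 of the 15 were H4. These 10 include the 5 shared H4 probe sets, which are close to 1 measurement. With arrays centred on their medians the count of members was 7. H4c3 was lower in the lobes by 0.90 ± 0.16 and H4c6 by 0.72 ± 0.15 on the log2 scale (adjusted p = 0.00203 and 0.00462). No member was called between the cardiac and medial lobe, against 0.503% of all, with 5 at an unadjusted p under 0.05, beside 8.75% of all. The mean over 64 small nucleolar, Cajal body and spliceosomal RNAs moved with these levels. It was 8.19 to 10.08 in the whole lungs, 7.33 to 7.76 in the medial lobes and 7.35 to 8.52 in the cardiac lobes, where 8.52 was the day 7 array. The day 7 cardiac lobe was also the highest of all arrays for H4c6 (11.66) and for the shared H4 mean (13.17). With the small RNA mean as a covariate, no member was called lower in lobes than in whole lung. That mean itself largely separates whole lungs from lobes, so this fit cannot tell it apart from region. The median member difference did not shrink, at -0.26 with the covariate and -0.10 without it, and the calls lower over all probe sets fell from 3749 to 1389. Against day 0 the members called higher were 28 at day 3 with the covariate and 19 without it. At day 7 they were 24 with it and 23 without it. The part of the small RNA level in the H4 values was not tested further.

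Genes of DNA replication and mitosis were high in the same arrays. Of 40 S-phase and DNA replication genes, 16 were called higher at day 3 and 11 at day 7 against day 0 and none lower. An unadjusted p under 0.05 was reached by 32 and 24 of them, and by 14.5% and 23.2% of all probe sets. Rrm2, a subunit of ribonucleotide reductase, differed by 1.36 ± 0.20 and 1.26 ± 0.20, and Tk1, thymidine kinase, by 1.15 ± 0.17 and 0.93 ± 0.17. Pole, the catalytic subunit of a DNA polymerase, differed by 0.99 ± 0.21 at day 3, and Rrm1, the other ribonucleotide reductase subunit, by 0.95 ± 0.15. Tyms, thymidylate synthase, differed by 0.92 ± 0.16 and 0.88 ± 0.16. Ccne1, cyclin E, rose by 0.64 ± 0.12 and 0.76 ± 0.12. The list's mean was 7.33, 8.04 and 7.52 at day 3 and 7.58, 7.60 and 7.34 at day 7, beside 6.99 to 7.16 at day 0. As for the shared H3 probe sets, the day 3 cardiac lobe was highest and the day 3 medial lobe lowest of its day. All 29 mitosis genes were called higher at day 3 and 26 at day 7, with median differences of 1.46 and 1.08. Plk1, a mitotic kinase, differed by 1.95 ± 0.21 and 1.39 ± 0.21, and Ccna2, cyclin A, by 1.93 ± 0.26 and 1.63 ± 0.26. Leaving out any 1 of the arrays compared gave S-phase counts of 6 to 9 at day 3, except 23 without the day 3 medial lobe, and 2 to 7 at day 7, except 15 without the day 7 whole lung. The mitosis counts were 22 to 29 at day 3 and, at day 7, 10 without the day 0 whole lung, 12 without the day 0 cardiac lobe, 15 without the day 7 medial lobe and 18 to 26 otherwise.

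The genes that make and end histone RNA did not pass the test. None of 22 genes for histone RNA transcription and 3' end processing was called at either day, with medians of 0.02 and -0.14. An unadjusted p under 0.05 was reached by 1 and 5 of them, and by 14.5% and 23.2% of all probe sets. Zfp473, a zinc finger protein of the 3' processing complex, had the smallest p at both days, with differences of 0.21 ± 0.07 (adjusted p = 0.168) and 0.25 ± 0.07 (adjusted p = 0.07). Npat differed by -0.16 ± 0.18 and -0.44 ± 0.18 (adjusted p = 0.779 and 0.157). Slbp differed by 0.14 ± 0.13 and 0.27 ± 0.13 (adjusted p = 0.715 and 0.224).

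Of 21 histone chaperones and deposition factors 4 were called higher at day 3 and 3 at day 7, and none lower. Asf1b, which hands new H3 and H4 to the assembly factors, differed by 1.15 ± 0.20 (adjusted p = 0.00434) and 0.90 ± 0.20 (adjusted p = 0.0243). Chaf1b, a subunit of chromatin assembly factor 1, differed by 0.84 ± 0.17 at day 3 (adjusted p = 0.0126), and Chaf1a, its largest subunit, by 0.77 ± 0.18 at day 7 (adjusted p = 0.0314). Mms22l, a partner of Tonsl at replication forks, was called at both days (0.53 ± 0.11 and 0.55 ± 0.11), and Mcm2, also in the S-phase list, at day 3. Asf1a and Hira, of pathways that act outside replication too, did not pass. In a list of 10 variants taken as replication-independent, only Cenpa and H2ax were called. Cenpa, the H3 of centromeres and also in the mitosis list, was called at both days (1.12 ± 0.14 and 1.0 ± 0.14). H2ax, which the shared H2A probe sets also list, was called at day 7 only (0.96 ± 0.24, adjusted p = 0.0399). At day 3 H2ax differed by 0.88 ± 0.24 (adjusted p = 0.062). The other variants of the list did not pass at either day.

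**Figure D4:**
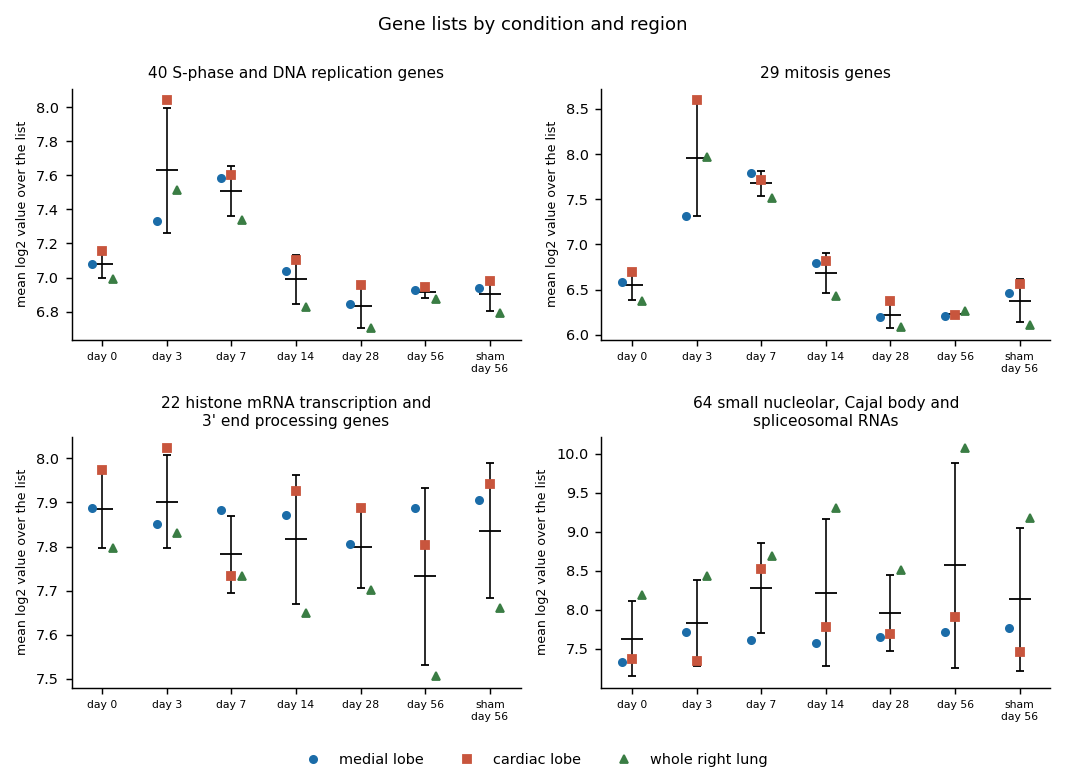
Mean log2 value of 4 gene lists by condition; points are the 3 regions, black bars the mean ± SD (n = 3). The S-phase list is highest at day 3 in the cardiac lobe (8.04) and its day 3 and day 7 points lie at 7.33 or more, the 3' processing list shows no early peak, and the small RNA list is highest in whole lungs, up to 10.08.

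The 12 lung identity markers, among them surfactant genes, averaged 11.55 to 12.20 in every array. At day 3 their median difference from day 0 was -0.26, and 1 of them was called lower, Nkx2-1, a lung transcription factor (-0.37 ± 0.09, adjusted p = 0.0308). Sftpb, Sftpa1, Sftpd, Lamp3, Ager and Hopx were also lower at an unadjusted p under 0.05 (limma). Among all probe sets 14.5% passed that threshold at day 3. No lung marker was higher at that threshold. At day 7 none was called and the median was -0.07, with 3 at an unadjusted p under 0.05 (limma), where 23.2% of all probe sets passed. Markers of cells that could carry histone RNA of their own also moved. Of 12 T and NK cell markers, 7 at day 3 and 10 at day 7 were called lower than at day 0 and none against sham. The list means were 7.39 to 7.71 at day 0, 6.63 to 7.03 at day 3, 6.55 to 6.68 at day 7 and 6.87 to 6.98 in sham lungs. Of 10 B and plasma cell markers, 6 and 7 were called lower than at day 0, and against sham 0 at day 3 and 3 at day 7 (Cd79a, Cd79b and Ms4a1). Of 11 macrophage markers, 4 at day 3 and 1 at day 7 were called higher, and Siglecf, a marker of alveolar macrophages, was called lower at day 3 (-0.44 ± 0.11, adjusted p = 0.0382), with means of 9.0 to 9.09 at day 0 and 9.65 to 10.14 at day 3. Of 7 mesothelial markers, 2 and 1 were higher. Among markers of neutrophils and myeloid precursors, Prtn3 alone was called against day 0, higher at day 3 (0.87 ± 0.19, adjusted p = 0.0178). Ltf was the only one called against sham at day 7, where it was higher (1.34 ± 0.30, adjusted p = 0.0306). No cardiac muscle marker was called against day 0 at either day. Markers of thymocytes averaged 5.21 to 5.45 and those of erythroid precursors 5.89 to 6.15 at day 0, day 3, day 7 and in sham lungs, with no marker of either called higher at day 3 and 1 erythroid marker at day 7. The part of any of these cells in the histone values was not tested.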

How the data were processed

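The authors deposited log2 expression values after RMA (robust multi-array averaging), per the submitters' processing notes, which give no version. The values ran from log2 2.98 to 14.06, no detection calls were used, and per the labels all arrays share 1 hybridisation date. Symbols came from the platform annotation, and H1f10 was left out. A model with condition and region terms was fitted to all 35556 probe sets with limma 3.58.1 in R 4.3.3 (empirical Bayes, 12 residual degrees of freedom), with Benjamini-Hochberg adjustment within each comparison. Errors after ± are standard errors from the fit, or SD where so marked. Regional responses came from region by phase means. Replicate numbers 1, 2 and 3 mark the medial lobe, cardiac lobe and whole lung, and the region term is that block. Members and lists were chosen with earlier results of these data known. Named were up to 10 called members per early comparison by size, at least 1 per family, the highest mean of each family, up to 5 called per later comparison, and of each list up to 4 called genes per early day or the smallest p-values. H1f3, H2ac8, H2bc6 with H1f4, H2bc8, H2bc21, H3c4, H3c7, H3c15, H4c3, H4c4, H4c17 with H4c11, Slbp, Ccne1, Asf1a, Hira, Siglecf, Cd79a, Cd79b and Ms4a1 were named after their values were seen, and the H1 box was added after seeing the data. Sftpb, Sftpa1, Sftpd, Lamp3, Ager, Hopx and Ltf were also named after their values were seen. Where a listed gene had several probe sets, the brightest stood for it. Scripts were tested on simulated data.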

Additional observations from a re-analysis of the deposited data

How the results depend on the processing

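Calls of histone probe sets varied with the setting. Directions were followed for 15 named probe sets at both early days (near-identical shared ones once per family). None changed sign with a call, and H2bc4 alone changed sign, uncalled, in 2 and 5 settings. Most were named because they were called in these same arrays, so their signs could hardly change, and nothing follows for the other members. Leaving out each array in turn gave 2 to 26 calls higher at day 3 against day 0, 2 to 26 at day 7, 19 to 29 and 20 to 29 against sham, 0 to 3 lower from day 7 to day 14, 10 to 17 lower in lobes than in whole lung, 22 to 31 over all conditions, and 0 to 3 for the early response of the cardiac against the medial lobe. With the order day 3 and day 7 against day 0, then day 3 and day 7 against sham, the 6 arrays compared alone gave 0, 0, 1 and 0 calls, and the lobes alone 0, 2, 2 and 5; both use fewer arrays. One probe set per gene tests 26 members and gave 8, 11, 11 and 12, with 8 for lobes against whole lung and 13 over all conditions. Without a region term (no replicate block) the day 7 count against day 0 was 4 and that from day 7 to day 14 was 1; no other member count moved by more than 1.5 times. Arrays centred on their medians gave 13 at day 7 against day 0 and 7 between lobes and whole lung. Without the day 7 cardiac lobe and day 56 pneumonectomy whole lung arrays, day 7 against day 0 gave 9 and day 14 against day 7 gave 0. With the small RNA mean as covariate, day 7 against sham gave 37, day 14 against day 7 gave 26 and lobes against whole lung 0. Quantile normalization gave 12 from day 7 to day 14 and 1 each at days 28 and 56 against sham. From day 7 to day 14 the lobes alone and the 6 arrays gave 0, and over all conditions the lobes alone gave 2. The cause was not tested where not stated. In the 150 bases before the start alone, CCAAT was in 48, TATAAA in 23, the octamer in 10 and the H1 box in 7 of 58 promoters. The S-phase and mitosis counts were recomputed in settings chosen after seeing the data.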
